A study of Mus musculus with 6 samples.

Results

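Collagens, laminins and nidogens are the structural chains of the extracellular matrix, and their transcripts were compared here between the stria vascularis of Esrrb mutant mice and that of wild-type mice. The members were taken by name: every gene with a probe set annotated to a single symbol beginning with Col and a digit, or with Lama, Lamb or Lamc and a digit, or equal to Nid1 or Nid2. This gave 54 of the 18193 genes named on the array, measured by 105 of its 45037 probe sets, and for each gene the probe set brightest on average across the 6 arrays was used. They comprised 18 basement membrane chains (6 collagen IV, 10 laminin and 2 nidogen chains), 8 fibrillar collagens, 7 cartilage collagens and 21 other collagens.

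The mutant mice carried a conditional knock-out of Esrrb (Errb or Nr3b2 in the labels), the gene of an orphan nuclear receptor, estrogen-related receptor beta; the sources used here do not name the Cre line, its cell type or the strain. The controls were labelled wild type with no further allele or agent. Each sample was a pool of tissue from 10 mice on its own Affymetrix array, with 3 pools per genotype numbered 1 to 3, and the wild-type pool numbered 1 alone is labelled with an age, postnatal days 3 to 5. The labels name the tissue as stria vascularis, whereas the design text speaks of inner ears.

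The stria vascularis is the vascularised epithelium of the cochlear lateral wall. Its capillaries lie within the epithelium and have thick basement membranes, and it borders the spiral ligament, a connective tissue rich in fibrillar collagen, which is itself attached to the cartilaginous and later bony otic capsule. Basement membranes are sheets in which a laminin network, built of alpha, beta and gamma chains, and a collagen IV network are bridged by nidogens. Collagen IV chains assemble as alpha1 with alpha2, as alpha3 with alpha4 and alpha5, or as alpha5 with alpha6, and loss of the alpha3, alpha4 or alpha5 chain causes Alport syndrome, a disease of kidney and hearing. Fibrillar collagens form the rope-like fibrils of connective tissue and bone, and collagens II, IX and XI the thin fibrils of cartilage.

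Each value is the deposited log2 value of a probe set, and every difference is the mutant minus the wild type on that scale, averaged over the 3 pairs of arrays with the same replicate number and given ± SD (n = 3). Values of different probe sets are not comparable as levels, so comparisons are made within a probe set. The labels do not say whether the pools were made from separate litters or dissections, so p-values measure only the spread between these 6 samples. The arrays differed by pair: array medians were 6.07 and 6.08 (pair 1), 6.95 and 6.94 (pair 2) and 6.42 and 6.38 (pair 3). As a sign of RNA quality, the 3' control of Gapdh exceeded its 5' control by 2.28 and 2.57 on the arrays of pair 1, and by -0.04 to 0.51 on the others. In pair 1, 34.2% of all probe sets and 9 of the 54 members had exactly equal values on both arrays. The probe set of Esrrb with the highest mean differed by -0.07 ± 0.21, and its others by -0.18 ± 0.43 and by -0.42 ± 0.46, the last being lower in all 3 pairs. The sources used here do not say which of them lie in the deleted part, so they check nothing about the labels. All 7 listed marker genes of strial marginal cells, Esrrb itself among them, had a mean difference below 0, with a median of -1.40. Of these, 6 were lower in all 3 pairs, beside 9.03% of all genes, and Esrrb was of mixed sign. In the limma fit paired by replicate number, 4 passed at an adjusted p under 0.05, where 0.148% of all genes passed.

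No collagen, laminin or nidogen gene passed the test in the comparison of mutant with wild type. The count was 0 of 54 at an adjusted p of 0.05 (limma, paired by replicate number), where 0.148% of all genes passed. The smallest adjusted p among them was 0.281, for Col18a1, and no other of the 105 probe sets passed either. At an unadjusted p under 0.05, 6 of the 54 were higher in the mutant and 2 lower, beside 4.04% and 3.31% of all genes. In the limma fit without the pairs, 0 members passed, beside 0.00550% of all genes, and 0 had an unadjusted p under 0.05, beside 0.308% of all genes. The values of the genotypes overlapped in all 54, and they did not overlap in 1.07% of all genes. Array medians were close within the pairs but ranged from 6.07 to 6.95 between them. Overlap and the fit without the pairs therefore take in the difference between pairs, for members and all genes alike. The same holds where overlapping genotypes are named for single genes below. Within the pairs, 14 members were higher in the mutant in all 3, against 12.9% of all genes, and 3 were lower in all 3, against 9.03%. Among genes with a mean log2 value of 6 or more, which 47 of the members reached, these shares were 15.7% and 10.4%. A gene with exactly equal values in a pair cannot have a common sign. Pair 1 was equal in 5841 of the 18193 genes, but in 9 of the 54 members and 0 of the 8 fibrillar collagens. At a mean of 6 or more it was equal in 3223 of 12864 genes and 5 of the 47 members. The shares of all genes are therefore lowered more by equal values than those of the members. The 14 were 7 fibrillar collagens, 5 other collagens and 2 laminin chains, and the 3 were Col4a3, Col15a1 and Col18a1.

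The classes differed in where their differences lay. The median difference was 0.21 over the 8 fibrillar collagens, 0.04 over the 7 cartilage collagens, 0.05 over the 21 other collagens and -0.005 over the 18 basement membrane chains, beside 0.004 over all genes. By pair, the fibrillar medians were 0.39, 0.13 and 0.20, and the basement membrane medians were -0.09, -0.02 and 0.06. Over the 15 fibrillar and cartilage collagens jointly the median was 0.14, and by pair it was 0.21, 0.11 and 0.19. Pair 1 weighed on these medians: without it that of the basement membrane chains was 0.08, that of the cartilage collagens 0.15 and that of the fibrillar collagens 0.16. Without pair 3 the basement membrane median was -0.06 and the cartilage median -0.10. No test was made of the difference between classes, because the members were chosen with earlier results known.

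**Figure D1:**
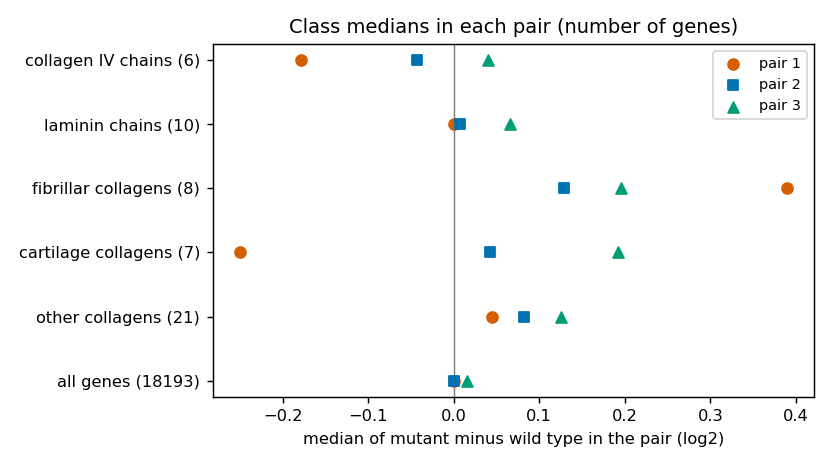
Median of the mutant minus wild-type difference (log2, x axis) in pair 1, pair 2 and pair 3 for collagen IV chains, laminin chains, the 3 classes of other collagens and all 18193 genes, with the number of genes in brackets. The fibrillar collagens lie above 0 in all 3 pairs (0.39, 0.13 and 0.20), the cartilage collagens spread from -0.25 to 0.19, and all genes lie at 0 to 0.02.

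The basement membrane chains as a class showed no common direction. Of the 18, 8 had a mean difference above 0 and 10 below, over a range from -0.28 for Col4a3 to 0.26 for Lama2, and none had an unadjusted p under 0.05. Lama2 and Lamb1 were higher in all 3 pairs, Col4a3 was lower in all 3, and the other 15 were mixed. Of all genes, 12.9% were higher and 9.03% lower in all 3 pairs. In 5 of the 18 the values of pair 1 were exactly equal. Of all 35 probe sets of these genes, 13 had a mean difference above 0 and 22 below. In all 3 pairs 2 of the 35 were higher and 3 lower, and pair 1 was exactly equal in 12. At an unadjusted paired p under 0.05, 2 of the 35 were lower, 1 each of Col4a5 and Lamb1, beside 3.31% of all genes.

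Among the collagen IV chains, the ubiquitous pair Col4a1 and Col4a2 had mean differences near 0. Col4a1 was at 11.79, 12.75 and 11.99 in wild-type replicates 1 to 3 and at 11.77, 12.64 and 12.34 in the mutant. The difference was 0.07 ± 0.24 (95% interval -0.20 to 0.35). Col4a2 was at 10.52, 11.49 and 10.92 in wild type and at 10.29, 11.45 and 11.26 in the mutant, a difference of 0.02 ± 0.29 (interval -0.28 to 0.33). Both genes were lower in the mutant of pairs 1 and 2 and higher in that of pair 3, by 0.35 and 0.33, and their genotypes overlapped. Without pair 3 their differences were -0.06 and -0.13.

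No chain of the Alport network passed the test, and only Col4a3 had a common sign in the pairs. Col4a3 was at 6.62, 8.58 and 8.59 in wild type and at 6.38, 8.53 and 8.02 in the mutant. It was lower in all 3 pairs, by 0.24, 0.05 and 0.57, and the genotypes overlapped. The mean difference was -0.28 ± 0.26 with an interval of -0.57 to 0.005 (limma adjusted p = 0.706), it was -0.14 without pair 3, and its second probe set differed by -0.24 ± 0.32. Its partner Col4a4, which is also its head-to-head neighbour, differed by -0.06 ± 0.12 (interval -0.26 to 0.13). Col4a5, the X-linked chain, was at 9.81, 10.51 and 9.63 in wild type and 9.62, 10.41 and 9.73 in the mutant, a difference of -0.06 ± 0.14. Its second probe set was lower in all 3 pairs and averaged -0.20 ± 0.04 (adjusted p = 0.629). Col4a6, the chain that shares its promoter region with Col4a5, differed by -0.002 ± 0.01, with exactly equal values in pair 1.

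Laminin alpha chains give each trimer its receptor-binding domains. Lama2, the alpha chain of muscle and nerve basement membranes, was at 8.08, 9.38 and 9.08 in wild type and 8.57, 9.66 and 9.10 in the mutant. Every mutant array was above its wild-type partner, by 0.49, 0.28 and 0.02, while the genotypes overlapped, and the mean difference was 0.26 ± 0.24 (interval -0.005 to 0.53, adjusted p = 0.706; 0.15 without pair 1). Lama4, the alpha chain of vessel walls, differed by 0.13 ± 0.36, with -0.19, 0.06 and 0.53 in the pairs. Lama5, the broadly expressed epithelial and vascular alpha chain, differed by 0.007 ± 0.31. Lama1 and Lama3, the alpha chains of early embryonic and of epidermal-type basement membranes, had mean values below 6 on the array, equal values in pair 1, and differences of -0.04 ± 0.07 and -0.12 ± 0.22.

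The measured beta and gamma chains of laminin did not pass the test, with mean differences from -0.26 for Lamc3 to 0.09 for Lamb2. Lamb1 was at 11.31, 11.47 and 11.32 in wild type and 11.38, 11.56 and 11.43 in the mutant. It had the tightest spread between pairs of the well measured laminin chains, with pair differences of 0.06, 0.09 and 0.11 and a mean of 0.09 ± 0.03 (interval -0.07 to 0.25). Another of its 4 probe sets was lower in all 3 pairs, at -0.29 ± 0.22, so the probe sets of Lamb1 do not give a common direction. Lamc1, its gamma partner, differed by -0.03 ± 0.24 (interval -0.30 to 0.23), and by -0.36 ± 0.85 in its second probe set. Lamb2, the beta chain of kidney and synaptic basement membranes, differed by 0.09 ± 0.44 (interval -0.34 to 0.52), with -0.34 in pair 1 and 0.54 in pair 3. Lamc3 differed by -0.26 ± 0.31 (interval -0.59 to 0.06) and Lamb3, the beta chain of hemidesmosomal laminin, by -0.07 ± 0.12. Both had equal values in pair 1.

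The nidogens, which link laminin to collagen IV, did not pass the test either. Nid1 differed by 0.09 ± 0.30 (interval -0.22 to 0.41) and Nid2 by -0.007 ± 0.23 (interval -0.27 to 0.25). In pair 2 Nid1 was 0.20 lower and Nid2 0.25 higher in the mutant.

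**Figure D2:**
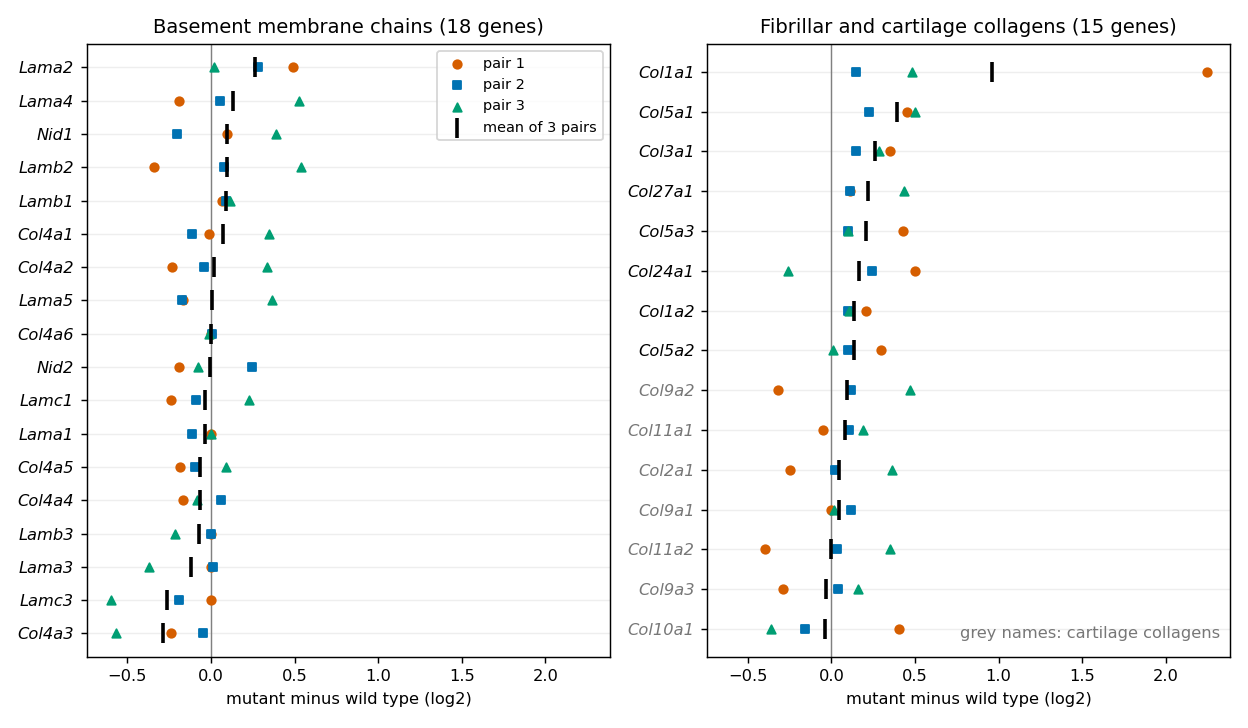
Mutant minus wild-type difference (log2, x axis) of each basement membrane chain (left) and each fibrillar or cartilage collagen (right, cartilage names in grey) in pair 1 (circles), pair 2 (squares) and pair 3 (triangles); the bar is the mean of the 3 pairs. Basement membrane chains lie on both sides of 0, whereas 7 of the 8 fibrillar collagens lie above 0 in every pair and Col1a1 reaches 2.24 in pair 1.

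The fibrillar collagens had small positive differences. All 8 had a mean difference above 0, from 0.14 for Col5a2 to 0.96 for Col1a1. In all 3 pairs 7 were higher, beside 12.9% of all genes and 15.7% of those with a mean of 6 or more. Col24a1 was lower in pair 3, by 0.26. None passed over all probe sets, and 2 were higher at an unadjusted p under 0.05, beside 4.04% of all genes. All 17 probe sets of these genes had a mean difference above 0, and 14 were higher in all 3 pairs. Of all 105 member probe sets, these 17 included, 26 were higher in all 3. After quantile normalization of all arrays, 6 of the 8 genes instead of 7 were higher in every pair.

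Col5a1 encodes a chain of collagen V, which nucleates collagen I fibrils. It was at 8.87, 9.40 and 8.63 in wild type and at 9.32, 9.63 and 9.13 in the mutant. Each mutant array was above its partner, by 0.45, 0.23 and 0.50, though the genotypes overlapped. The mean difference of 0.39 ± 0.15, a 1.31-fold difference, had an interval of 0.18 to 0.60 and an adjusted p of 0.369. Its other probe sets differed by 0.35 ± 0.15 and 0.22 ± 0.23. The partner chains Col5a2 and Col5a3 differed by 0.14 ± 0.14 and 0.21 ± 0.19, and without pair 1 by 0.06 and 0.10.

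Col3a1, the collagen of reticular and vessel wall fibrils, was at 12.15, 12.97 and 12.88 in wild type and 12.50, 13.12 and 13.17 in the mutant. The pair differences were 0.35, 0.15 and 0.28 with overlapping genotypes. The mean of 0.26 ± 0.10, a 1.20-fold difference, had an interval of 0.07 to 0.45 and an adjusted p of 0.536. Its second probe set differed by 0.28 ± 0.21. Col27a1, a fibrillar collagen of cartilage and developing bone, differed by 0.22 ± 0.18, and by 0.11 without pair 3.

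The chains of collagen I, the main collagen of bone and ligament, differed in size. Col1a2 was at 12.76, 13.77 and 13.61 in wild type and 12.96, 13.87 and 13.72 in the mutant, a difference of 0.14 ± 0.06 (interval -0.03 to 0.31, adjusted p = 0.740). Col1a1 was at 8.78, 9.42 and 8.85 in wild type and at 11.02, 9.57 and 9.34 in the mutant. The mutant array of pair 1 stood 2.24 above its partner and the others 0.15 and 0.48, and the genotypes overlapped. The mean was 0.96 ± 1.13 (interval -0.07 to 1.99, adjusted p = 0.722), and without pair 1 it was 0.32. The second Col1a1 probe set showed the same order, with 2.57, 0.20 and 1.01 in the pairs and a mean of 1.26 ± 1.21 (adjusted p = 0.636).

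Some bone genes also had large differences in pair 1. Ibsp, Dmp1 and Phex were named for the largest difference in 1 pair among the listed markers of bone cells, and none passed. Ibsp, the bone sialoprotein gene, was at 3.65 in wild-type replicate 1 and 7.50 in its mutant partner, against 7.41 to 8.04 on the other 4 arrays. Dmp1 and Phex, both genes of mineralising osteocytes, were 2.24 and 1.73 higher in the mutant of pair 1, whereas pair 2 gave 0.58 and 0.49 and pair 3 gave 0.19 and 0.24. Mmp13, the collagenase of hypertrophic cartilage and bone, was 2.20, 0.15 and 1.40 higher in the pairs (1.25 ± 1.03, adjusted p = 0.555). Of the list of 12 osteoblast and osteoclast markers 9 were measured, all with a mean difference above 0, a median of 0.18 and 0 passing. The pair medians were 0.38, 0.20 and 0.06, and 4 were higher in all 3 pairs, beside 12.9% of all genes. Their summed linear value ranged from 847 to 2300 in wild type and from 1570 to 2650 in the mutant, with a mutant to wild-type ratio of 1.85 in pair 1 and of 1.15 and 1.07 in the others. The part of bone tissue in the Col1a1 values was not tested. In pooled tissue more cells of a type and more RNA per cell cannot be told apart.

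**Figure D3:**
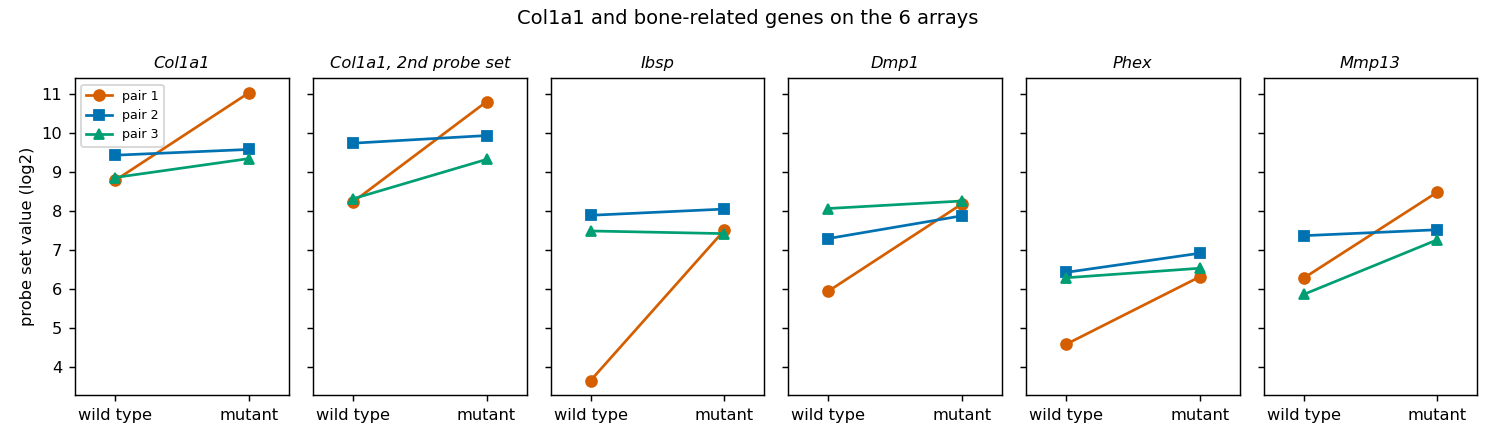
Probe set value (log2, y axis) of both Col1a1 probe sets and of Ibsp, Dmp1, Phex and Mmp13 on the wild-type and mutant array of pair 1 (circles), pair 2 (squares) and pair 3 (triangles), with lines joining same-numbered arrays. The steepest line is that of pair 1 in each panel, from 8.78 to 11.02 for Col1a1 and from 3.65 to 7.50 for Ibsp.

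Markers of mesenchymal fibroblasts stood beside the fibrillar collagens. Of that list of 9, 8 were measured and 7 had a mean difference above 0, with a median of 0.18 and none passing. In all 3 pairs 3 were higher, beside 12.9% of all genes. Dpt, the gene of the fibril-binding protein dermatopontin, differed by 1.19, -0.01 and -0.16 in the pairs, and Twist1, a mesenchymal transcription factor, by -0.06, 0.53 and 0.53. The summed linear value of the list was 1.05, 1.07 and 1.06 times as high in the mutant in pairs 1 to 3. Its part in the collagen values was not tested. The 11 markers of spiral ligament fibrocytes had a median of -0.05, with 4 above 0 and 7 below. Of these, 5 were lower and 2 higher in all 3 pairs, beside 9.03% and 12.9% of all genes, and 1 passed, as lower, beside 0.148%. Their summed linear ratio was 0.798, 0.891 and 0.892 in the pairs.

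The cartilage collagens had mean differences near 0 and were of mixed sign in the pairs. Of the 7, 4 had a mean difference above 0 and 3 below, within -0.04 to 0.09, and none had the same sign in all 3 pairs. Col2a1, the main collagen of cartilage, was at 12.80, 14.54 and 14.04 in wild type and 12.55, 14.56 and 14.40 in the mutant. Of its partners in the cartilage fibril, Col11a2 differed by -0.40, 0.03 and 0.35 in the pairs, Col9a2 by -0.32, 0.12 and 0.47, and Col11a1 by -0.05, 0.11 and 0.19. Col9a3 differed by -0.29, 0.04 and 0.16, but its second probe set by 0.13, 0.19 and 0.08. Col9a1 did not follow that order, with exactly equal values in pair 1 and differences of 0.12 and 0.01 in the others. Col10a1, the collagen of hypertrophic cartilage, had the opposite order, with 0.40, -0.16 and -0.36. The 10 chondrocyte markers outside the collagens had a median of -1.8e-05, with 5 higher and 5 lower and a summed linear ratio of 1.01, 1.10 and 1.02 in the pairs. Comp, a cartilage and tendon matrix gene, had the mean difference furthest from 0 in that list, at -0.65 ± 0.22 (adjusted p = 0.233).

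Col18a1 had the most negative difference of the 54 members. Collagens XVIII and XV form the multiplexin family, which is anchored in basement membranes, and the C-terminal fragment of collagen XVIII is endostatin. Col18a1 was at 9.82, 10.13 and 9.48 in wild type and at 9.13, 9.48 and 9.17 in the mutant. All 3 mutant arrays were below their partners, by 0.69, 0.64 and 0.31, and the genotypes overlapped only in that wild-type replicate 3 lay just below mutant replicate 2, both at 9.48. The mean difference of -0.55 ± 0.20, a 1.46-fold difference, had an interval of -0.79 to -0.30 and an adjusted p of 0.281. The second probe set was at 9.15, 9.86 and 9.35 in wild type and 8.33, 9.16 and 8.97 in the mutant, a difference of -0.64 ± 0.23 (adjusted p = 0.245). Col15a1 was at 8.54, 8.69 and 8.14 in wild type and 8.32, 8.38 and 7.87 in the mutant. It had similar differences of -0.23, -0.31 and -0.26 in the pairs, with overlapping genotypes, a mean of -0.27 ± 0.04, an interval of -0.43 to -0.10 and an adjusted p of 0.459.

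Endothelial markers had negative mean differences beside the multiplexins, but not a negative median in every pair. Of 12 listed, 11 were measured, all with a mean difference below 0, a median of -0.17 and none passing. In the pairs, 4 were lower in all 3, beside 9.03% of all genes, and 7 were of mixed sign. The pair medians were -0.28, -0.20 and 0.04. Cldn5, the tight junction protein of endothelium, differed by -0.86, -0.06 and -0.34 in the pairs. The summed linear value ranged from 2670 to 6500 in wild type and from 2120 to 6290 in the mutant, with mutant to wild-type ratios of 0.792, 0.968 and 0.929. Col4a1, Col4a2 and Lama4, which endothelium also makes, had mean differences of 0.07, 0.02 and 0.13. The part of endothelium in the Col15a1 and Col18a1 values was not tested. Pericyte and smooth muscle markers had a median of -0.08 over 10 genes.

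**Figure D4:**
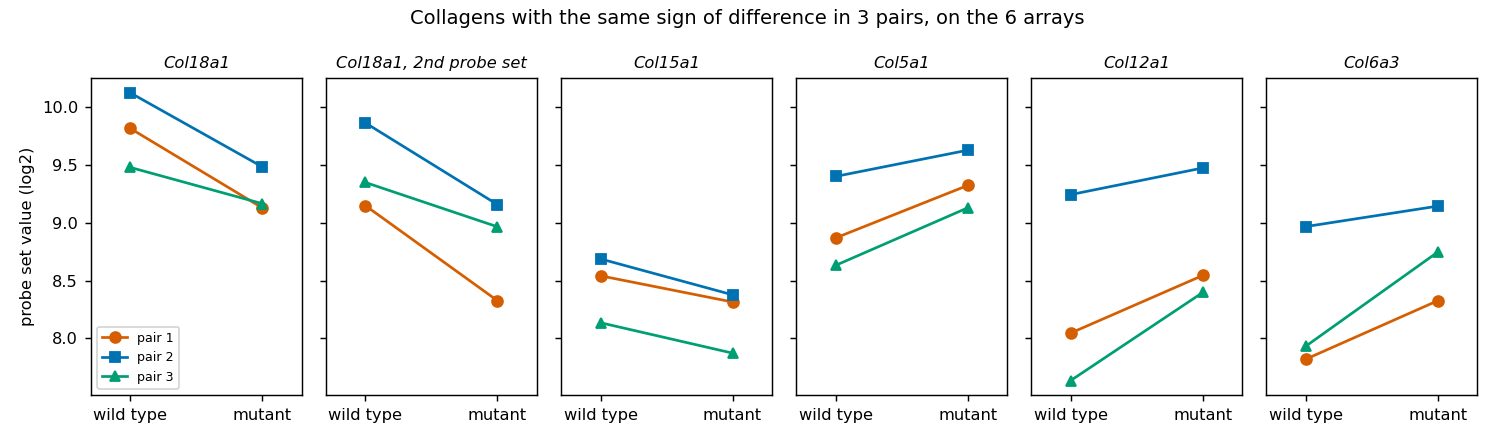
Probe set value (log2, y axis) of both Col18a1 probe sets, Col15a1, Col5a1, Col12a1 and Col6a3 on the wild-type and mutant array of pair 1 (circles), pair 2 (squares) and pair 3 (triangles), with lines joining same-numbered arrays. All 9 lines of the first 3 panels go down from wild type to mutant, by 0.23 to 0.82, and all 9 of the last 3 go up, by 0.18 to 0.81.

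Among the other collagens, the largest positive differences were those of Col6a3 and Col12a1. Col6a3, a chain of the beaded microfibrils around cells, was at 7.82, 8.97 and 7.93 in wild type and 8.33, 9.15 and 8.75 in the mutant. Its pair differences were 0.51, 0.18 and 0.81 with overlapping genotypes, and the mean was 0.50 ± 0.32 (interval 0.17 to 0.83, adjusted p = 0.484). Its partner chains Col6a1 and Col6a2 differed by 0.008 ± 0.22 and 0.05 ± 0.14. Col6a4 and Col6a5 differed by -0.11 ± 0.10 and 0.06 ± 0.13.

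Col12a1 and Col14a1 belong to the collagens that decorate collagen I fibrils. Col12a1 was at 8.05, 9.24 and 7.64 in wild type and 8.55, 9.48 and 8.40 in the mutant, higher in all 3 pairs with overlapping genotypes. The mean difference was 0.50 ± 0.27 (interval 0.21 to 0.79, adjusted p = 0.419). Its 3 other probe sets differed by 0.005, -0.10 and -0.14, and the mean over its probe sets differed by 0.06. Col14a1 differed by 0.18 ± 0.05 by its brightest probe set and 0.25 ± 0.16 by the next, both higher in all 3 pairs. The dimmest of its probe sets was at 7.86 and 4.97 on the arrays of pair 3, a difference of -2.89, which turned the mean over its probe sets to -0.14.

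Col25a1, a membrane collagen of neurons and muscle, was at 10.23, 10.68 and 9.94 in wild type and 10.50, 10.76 and 10.58 in the mutant, a difference of 0.33 ± 0.28 (adjusted p = 0.665). Without pair 3 the difference was 0.17, and its other probe set differed by -0.06. Col26a1 differed by 0.42 ± 0.44, with 0.09, 0.24 and 0.92 in the pairs and a mean of 0.17 without pair 3. Col8a2, a network collagen of vessel and eye basement membranes, differed by 0.30 ± 0.52, with -0.14, 0.15 and 0.87 in the pairs and a mean of 0.005 without pair 3. The remaining 13 other collagens lay between -0.14 for Col20a1 and 0.12 for Col16a1. They were Col6a1, Col6a2, Col6a4, Col6a5, Col7a1, Col8a1, Col13a1, Col16a1, Col17a1, Col19a1, Col20a1, Col22a1 and Col23a1, none with the same sign in all 3 pairs. Col8a1, the partner of Col8a2, differed by 0.05 ± 0.28. Col7a1 and Col17a1, which anchor stratified epithelium, differed by 0.02 ± 0.17 and 0.07 ± 0.15. The values of Col17a1 and Col6a5 did not exceed 4.26 and 4.51 on any array.

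**Figure D5:**
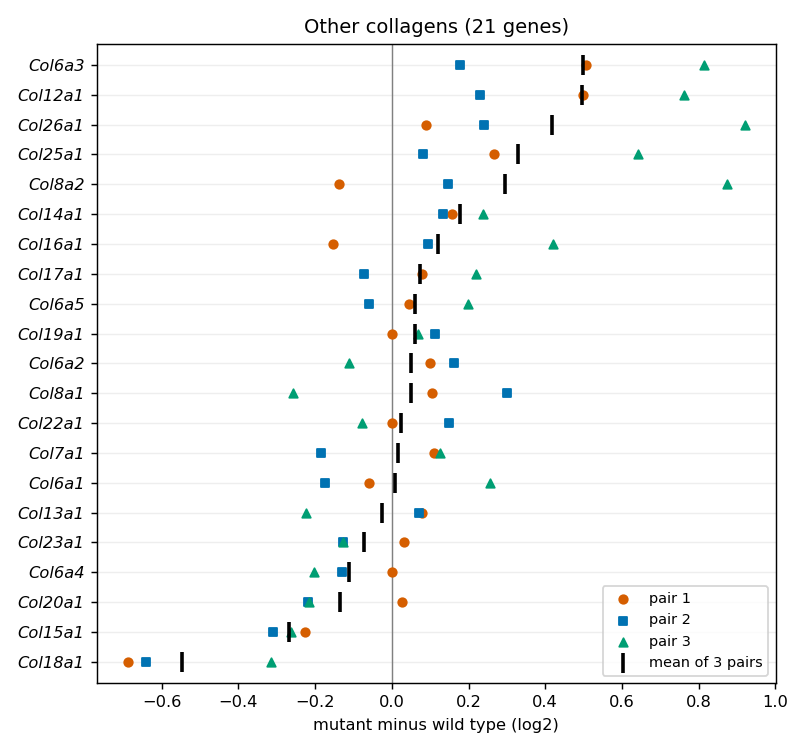
Mutant minus wild-type difference (log2, x axis) of the 21 collagens outside the basement membrane, fibrillar and cartilage classes in pair 1 (circles), pair 2 (squares) and pair 3 (triangles); the bar is the mean of the 3 pairs. Col18a1 and Col15a1 lie below 0 in every pair, and Col6a3, Col12a1, Col26a1, Col25a1 and Col14a1 above 0 in every pair.

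The probe sets of a gene did not always go the same way. Of the 54 members 34 had several probe sets, and the mean differences had a single sign in 20 and both signs in 14. Those 14 were Lama4, Lama5, Lamb1, Nid1, Col4a6, Col8a1, Col9a1, Col9a3, Col12a1, Col14a1, Col19a1, Col20a1, Col23a1 and Col25a1. All 7 fibrillar collagens with several probe sets were among the 20, as were Col18a1, Col4a1, Col4a3, Col4a4 and Col4a5. Probe sets with large differences in pair 3 alone included one each of Lama4 (-1.59), Lamc1 (-1.34) and Col4a4 (-0.81). In each of these the same pair differed by no more than 0.53 in the gene's brightest probe set. The Gapdh 3' to 5' difference was -0.04 and 0.51 on the arrays of pair 3, and its part in these values was not tested.

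The mutated gene encodes a DNA-binding receptor, so promoter letters are shown for 5 of the 17 members with a common sign, chosen as examples after their values were seen. The windows are the 250 bases before each annotated start, read 5' to 3' on the gene's strand, from the RefSeq promoter table of build GRCm38.p6, which held 43 windows for 39 of the 54 members. Capitals mark 4 motifs on either strand. They are the TATA box (searched as TATAAA), the CCAAT box (searched as CCAAT), the GC box (searched as GGGCGG) and the half-site that estrogen-related receptors bind (searched as AAGGTCA). The windows of Col3a1 (chr1:45311288-45311537, plus strand), Col5a1 (chr2:27886175-27886424, plus strand) and Col1a2 (chr6:4505368-4505617, plus strand) are examples of fibrillar genes that were higher in all 3 pairs.
Col3a1: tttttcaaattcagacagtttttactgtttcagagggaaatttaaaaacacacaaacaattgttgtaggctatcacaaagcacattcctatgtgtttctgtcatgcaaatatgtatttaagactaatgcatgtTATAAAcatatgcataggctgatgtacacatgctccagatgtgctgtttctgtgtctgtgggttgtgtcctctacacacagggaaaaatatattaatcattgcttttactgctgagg
Col5a1: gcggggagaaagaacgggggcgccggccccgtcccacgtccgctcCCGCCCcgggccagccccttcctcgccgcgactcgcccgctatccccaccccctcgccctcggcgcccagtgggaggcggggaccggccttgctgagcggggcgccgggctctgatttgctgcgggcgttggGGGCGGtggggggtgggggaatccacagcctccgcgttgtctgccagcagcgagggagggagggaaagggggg
Col1a2: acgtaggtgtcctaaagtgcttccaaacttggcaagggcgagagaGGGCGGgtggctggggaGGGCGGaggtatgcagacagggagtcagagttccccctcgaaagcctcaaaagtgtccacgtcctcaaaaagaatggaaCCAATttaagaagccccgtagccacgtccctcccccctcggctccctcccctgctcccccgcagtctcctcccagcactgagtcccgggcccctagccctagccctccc
Col18a1 has a window for each of its annotated starts, the upstream one at chr10:77166531-77166780, minus strand, and the downstream one at chr10:77113706-77113955, minus strand, and Col15a1 has one (chr4:47207762-47208011, plus strand).
Col18a1, upstream start: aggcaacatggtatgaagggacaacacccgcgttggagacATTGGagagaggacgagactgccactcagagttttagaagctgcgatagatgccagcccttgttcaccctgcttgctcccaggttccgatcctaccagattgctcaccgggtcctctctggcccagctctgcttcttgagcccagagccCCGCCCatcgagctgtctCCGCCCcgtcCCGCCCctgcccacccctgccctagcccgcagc
Col18a1, downstream start: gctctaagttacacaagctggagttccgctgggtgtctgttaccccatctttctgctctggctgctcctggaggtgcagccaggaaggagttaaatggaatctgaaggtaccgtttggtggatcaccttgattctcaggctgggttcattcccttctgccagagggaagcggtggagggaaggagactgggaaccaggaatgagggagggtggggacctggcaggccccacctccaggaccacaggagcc
Col15a1: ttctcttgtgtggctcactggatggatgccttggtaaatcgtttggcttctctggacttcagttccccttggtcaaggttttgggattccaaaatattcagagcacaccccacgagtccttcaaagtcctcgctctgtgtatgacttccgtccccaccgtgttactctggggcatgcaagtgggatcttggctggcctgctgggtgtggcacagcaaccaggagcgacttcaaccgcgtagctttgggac

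None of the 4 motifs was in all 6 windows. Col3a1 held 1 TATAAA and none of the others, Col5a1 held 2 GC boxes (GGGCGG), and Col1a2 held 2 GC boxes and 1 CCAAT. The upstream window of Col18a1 held 3 GC boxes and 1 CCAAT on the reverse strand, and its downstream window and that of Col15a1 held none of the 4 motifs. The half-site AAGGTCA was in none of these 6 windows, and was in those of Col7a1, Col9a1, Col11a1, Col23a1 and Col24a1, that is in 5 of the 43 member windows, beside 4.08% of the 32851 windows in the table. GGGCGG was in 24 of the 43 member windows (55.8%) and in 32.7% of all windows, CCAAT in 15 of the 43 (34.9%) and in 33.8%, and TATAAA in 5 of the 43 (11.6%) and in 12.4%. Matches of different motifs can share end letters, and a match is a string of letters and not a shown binding site.

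The enzymes and chaperones that make collagen had small differences that varied by pair. Of 30 listed, 27 were measured and 0 passed in either direction; 19 had a mean difference above 0, 8 below, and the median was 0.08. The pair medians were -0.09, 0.12 and 0.22, and 24 of the 27 were of mixed sign in the pairs. At an unadjusted p under 0.05, 2 were higher and none lower, beside 4.04% and 3.31% of all genes. Pcolce, the enhancer of procollagen C-terminal cleavage, was at 10.18, 10.79 and 10.17 in wild type and 10.54, 11.07 and 10.42 in the mutant. It was higher in all 3 pairs, by 0.36, 0.28 and 0.25, with a mean of 0.30 ± 0.06 (adjusted p = 0.415) and overlapping genotypes. Adamts3, a procollagen N-proteinase, differed by 0.23 ± 0.18. Serpinh1, the collagen chaperone HSP47, differed by 0.11 ± 0.10, and Ppib, a prolyl isomerase of the collagen folding complex, by 0.11 ± 0.04.

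The other proteins of basement membranes were mixed. Of 19 measured, 0 passed, 13 had a mean difference above 0 and 6 below, and the median was 0.07. An unadjusted p under 0.05 was reached by 3 that were higher and 2 that were lower, beside 4.04% and 3.31% of all genes. Frem2, an epithelial basement membrane protein, differed by 0.23 ± 0.06, and Tinagl1, a matricellular protein of vessel walls, by -0.38 ± 0.25. Egfl6 and Fbln2 differed by 0.47 ± 0.42 and 0.19 ± 0.09 and Fbln1 by -0.28 ± 0.21. The abundant matrix proteins Sparc and Agrn differed by -0.04 ± 0.14 and 0.05 ± 0.29.

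Receptors for collagen and laminin and the enzymes that degrade them did not pass either. Of 16 receptors 15 were measured, 10 with a mean difference above 0, and the median was 0.08. At an unadjusted p under 0.05, 1 was higher, the collagen receptor kinase Ddr2 (0.19 ± 0.07), beside 4.04% of all genes. Dag1, the gene of the laminin receptor dystroglycan, differed by 0.08 ± 0.31. Of 19 proteases and inhibitors 18 were measured, 12 with a mean difference above 0, and the median was 0.12. At an unadjusted p under 0.05, 4 were higher and none lower, beside 4.04% and 3.31% of all genes. The 4 were Mmp13, given with the bone genes above, Mmp9 (0.49 ± 0.49), Reck (0.21 ± 0.05) and Timp1 (0.21 ± 0.01). Timp1 and Reck encode inhibitors of matrix metalloproteinases. Timp1 was higher by 0.20, 0.21 and 0.23 in the pairs, with overlapping genotypes and an adjusted p of 0.556. Mmp2 and Timp2 differed by 0.12 ± 0.34 and 0.15 ± 0.11. Mmp9 is also on the list of osteoblast and osteoclast markers.

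Markers of Schwann cells and glia, which make laminin with the Lama2 chain, had a median of -0.02 over 7 of 9 listed genes, with summed linear ratios of 1.12, 0.905 and 1 in the pairs.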

How the data were processed

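Total RNA of 6 pools was hybridised, each pool to 1 array. The authors deposited RMA values on a log2 scale, 1 per probe set; the use of RMA comes from the submitters' processing notes, and the log2 scale from the range of the values. The sources used here do not give its version or say whether all arrays were normalized jointly. No further normalization was applied. The members and gene lists were chosen with earlier results of these data known.

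Of 45101 probe sets, 64 controls were left out; of the others 34945 carry 1 symbol, 932 several and 9160 none. RefSeq identifiers (GRCm38.p6) matched 34741 of the symbols and changed 0. The paired comparison used limma 3.58.1 under R 4.3.3 (lmFit and eBayes, two-sided), the replicate number being a block, with Benjamini-Hochberg adjustment over 45037 probe sets. The pairing comes from replicate numbers that the labels share between genotypes. Same-numbered arrays deviated from their genotype means with correlations of 0.879, 0.818 and 0.746, above the limit of 0.1; exactly equal values occurred within these pairs only, and normalizing each pair apart would also raise the correlations. The fits were tested on simulated data. Of 164 listed genes outside the members 12 were not matched, and the collagens Col28a1 and Col6a6 were not analysed here.

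Named members were those with an unadjusted paired p under 0.05 and a common sign, the 3 with the highest mean and the 3 with the largest difference in each class, the Alport syndrome genes, partner chains, and members whose probe sets disagree in sign; other members are named to account for all. From the pathway lists, genes with such a p and the 2 with the highest mean were named, and from each marker list at most 3 with a large difference in 1 pair. Alternatives were no block, quantile normalization, median centring, a mean of at least 6, averaging a gene's probe sets, dropping those open to cross-hybridisation, eBayes with trend and robust options, an adjusted p of 0.1 and leaving out each pair. The number of arrays limits the precision.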

Additional observations from a re-analysis of the deposited data

How the results depend on the processing

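The count of members called was 0 with the replicate block, with no replicate block, and under each other alternative, including an adjusted p of 0.1; the smallest adjusted p of a member lay between 0.12 and 1. Leaving out pairs moved the median of the basement membrane chains between -0.0593 (without pair 3) and 0.0755 (without pair 1), and the number of these chains higher in every remaining pair between 2 and 4 (without pair 1, where only 2 pairs remain and 30% of all genes were higher in both). That number was 1 with quantile normalization, with a gene's probe sets averaged and without cross-hybridising probe sets, against 2 as reported. The fibrillar median stayed between 0.16 and 0.27, and 7 (without pair 1) or 8 of these genes had a higher mean; the cartilage median lay at -0.10 without pair 3 and 0.15 without pair 1. With a gene's probe sets averaged, Lamb1 differed by -0.012 and Col14a1 by -0.14. Of the 17 members with a common sign, no other changed sign under any of up to 10 alternatives; of the 37 without one, 30 did under at least 1. The alternatives moved the median of all genes by less than 0.1. Leaving out a pair leaves few degrees of freedom, so those p-values say nothing about stability. Probe signal over background was not analysed here.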
